A study of Rattus norvegicus with 12 samples.

Results

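The genes described here are Phlda3 and 8 other genes of the p53 pathway (Mdm2, Cdkn1a, Ccng1, Sesn1, Sesn2, Gadd45a, Tp53inp1 and Zmat3) in FLS, the fibroblast-like synoviocytes of the joint lining. Each was taken as the gene record that carries its symbol, and all 9 were found, each with a single record, among 22442 gene records. The set was selected on the FPKM of Phlda3, which fell in libraries treated with TCDCA, so the level of Phlda3 relative to the FCA group is given as a description, without a test. The other 8 genes were chosen as p53 targets, to see whether they followed Phlda3 from library to library.

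Rat FLS were grown out of the synovium of male Sprague Dawley rats with AA (adjuvant arthritis, a joint inflammation raised by complete Freund's adjuvant) and used after serial passage. Poly(A) RNA was sequenced in 4 groups of 3 libraries. The FCA group was kept in DMEM alone, and FLS of AT10, AT1 and AT01 were given taurochenodeoxycholic acid (TCDCA, a taurine-conjugated bile acid) for 12 h, at 10, 1 and 0.1 µM. All 4 groups came from arthritic rats, so every comparison is between treated and untreated arthritic FLS, and healthy cells were not analysed here. The study's notes call the 3 libraries of a group repeats, without saying whether they came from separate cultures or rats, so the p-values measure only the spread between these libraries, which may be technical.

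The transcription factor p53 is held low by the ubiquitin ligase Mdm2, whose own gene p53 activates, and it rises when DNA is damaged or the cell is stressed. Its targets stop the cell cycle, repair DNA, restrain growth signalling or lead to cell death, and in arthritic synovium p53 and its targets have been studied as brakes on the overgrowth of FLS. Phlda3 is a direct p53 target that encodes a small protein made almost wholly of a pleckstrin homology domain. The protein competes with Akt for membrane phosphoinositides and so restrains Akt.

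The regulatory DNA around the start of Phlda3 and of Cdkn1a is shown because these are a p53 target that varied between the libraries and the best known p53 target, which hardly did. Both are RefSeq promoter windows of the assembly GRCr8, from 250 bases before to 50 after the start of the gene, both on the plus strand, at chr13:49744753-49745052 for Phlda3 and chr20:7150682-7150981 for Cdkn1a. Capitals mark the 8-letter motif GAACATGT (searched on both strands) and the 10-letter consensus of a p53 half-site, which overlap in Cdkn1a. A half-site is only a part of a full p53 site.
Phlda3: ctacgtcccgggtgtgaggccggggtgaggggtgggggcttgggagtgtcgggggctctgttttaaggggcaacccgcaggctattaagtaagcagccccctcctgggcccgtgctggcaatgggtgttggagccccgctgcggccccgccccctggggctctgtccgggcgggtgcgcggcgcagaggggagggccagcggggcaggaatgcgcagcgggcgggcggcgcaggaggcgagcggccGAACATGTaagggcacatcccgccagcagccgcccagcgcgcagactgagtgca
Cdkn1a: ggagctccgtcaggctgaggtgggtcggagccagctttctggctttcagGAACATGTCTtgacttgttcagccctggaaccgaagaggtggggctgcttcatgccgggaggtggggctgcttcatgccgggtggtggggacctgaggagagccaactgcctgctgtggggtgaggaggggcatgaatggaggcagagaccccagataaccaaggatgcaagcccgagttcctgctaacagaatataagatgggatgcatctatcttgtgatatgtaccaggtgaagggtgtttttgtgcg

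The 10-letter half-site consensus was present in the windows of 4 of the 7 members that had one (Cdkn1a, Ccng1, Sesn1 and Gadd45a), and in 7.98% of all 33469 promoter windows. In Cdkn1a the match was GAACATGTCT, starting at -201 from the gene's start, and in Ccng1 it was GGGCAAGCCT at -232. The 8-letter motif, chosen after these windows had been seen, stood at -4 in Phlda3 and at -201 in Cdkn1a, and in 0.762% of all windows. These are matches of letters, and binding of p53 was not measured.

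Phlda3 was high in every FCA library and varied widely between the TCDCA libraries of the same dose. Its level was 124.02, 132.03 and 127.64 FPKM (fragments per kilobase of transcript, scaled to the mapped fragments of the library) in the 3 FCA libraries, a mean of 128 ± 4.01 (SD, n = 3). In the AT10 group it was 0.68, 0.31 and 113.16 FPKM. In the AT1 group it was 56.53, 56.56 and 9.55 FPKM, and in the AT01 group 0.49, 110.94 and 109.32 FPKM. Thus AT10 replicates 1 and 2 and AT01 replicate 1 lay at 0.532%, 0.242% and 0.383% of the FCA mean, near the bottom of the scale. AT10 replicate 3 and AT01 replicates 2 and 3 lay at 88.5%, 86.7% and 85.5%, just under the FCA libraries. The AT1 libraries lay between these, at 44.2%, 44.2% and 7.47%.

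**Figure D1:**
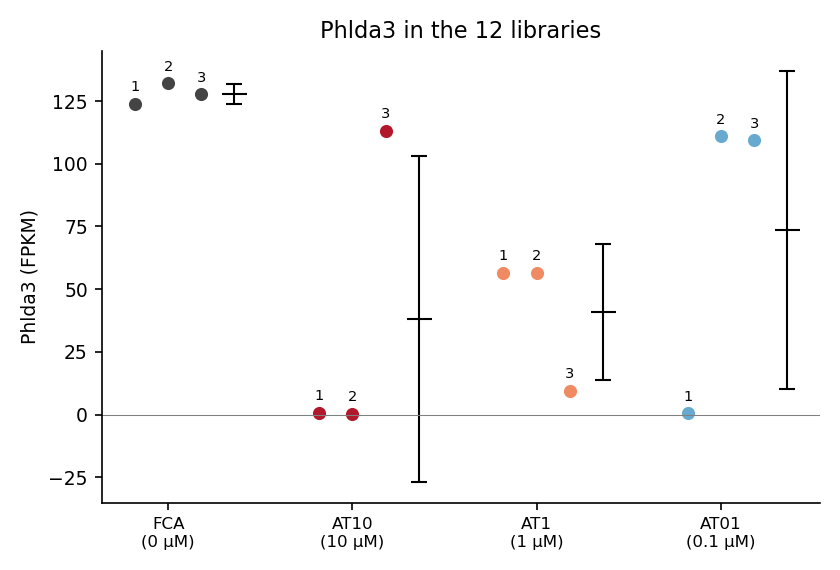
Phlda3 in FPKM (vertical axis) in each of the 12 libraries, by group and TCDCA dose in µM (horizontal axis), with the replicate number above each point and the mean ± SD of 3 libraries to its right. The FCA libraries lie between 124.02 and 132.03 FPKM, whereas AT10 spans 0.31 to 113.16 and AT01 spans 0.49 to 110.94, and the bars of both groups are wide.

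All 9 TCDCA libraries lay below the lowest FCA library. A separation of this kind, all 9 lower, was seen for 221 of the 11611 records that averaged 1 FPKM or more (1.9%), and since Phlda3 was picked for its fall nothing is read from it. The group means were 38 ± 65 FPKM in AT10, 40.9 ± 27.1 in AT1 and 73.6 ± 63.3 in AT01 (SD, n = 3 each). These SDs correspond to a coefficient of variation of 171%, 66.4% and 86%, against 3.14% in the FCA group. On the scale of log2(FPKM + 1), the mean of AT10 differed from that of FCA by -4.35, the mean of AT1 by -1.98 and the mean of AT01 by -2.29, and the mean of the 9 TCDCA libraries by -2.87. Since 3 libraries lay under 1 FPKM, the added 1 bears on these values, and with 0.1 added they were -5.27, -2.03, -2.73 and -3.34.

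Single libraries set much of these differences. Without AT01 replicate 1 the AT01 difference was -0.21, and without AT01 replicate 2 it was -3.33. In AT10 it ran from -3.22 without replicate 2 to -6.44 without replicate 3, and in AT1 from -1.16 without replicate 3 to -2.39 without replicate 1. The largest and the smallest of the 12 FPKM values differed 426-fold. A log2 range as wide as that of Phlda3 (6.67) was found in 26 of the 11611 records (0.224%), where the median record had a range of 0.599. Among the 1113 records whose mean lay within 2-fold of that of Phlda3, 10 had a range as wide and the median was 0.52. The fall for which Phlda3 was picked makes this range, so nothing is read from its rank.

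No order of dose was detectable for Phlda3. AT10 and AT1 differed by -2.37 on the log2 scale (SE 1.89, 95% interval from -7.06 to 2.31, limma adjusted p = 0.796), AT10 and AT01 by -2.06 (SE 2.45, -8.10 to 3.97, adjusted p = 0.884), and AT1 and AT01 by 0.31 (SE 1.87, -4.33 to 4.95, adjusted p = 1). Two-sided exact permutation tests gave 0.4, 0.7 and 1, where 3 libraries against 3 can reach no lower than 0.1. The intervals are wide enough to hold a large difference in either direction. Leaving out a library moved the difference of AT10 from AT1 between -1.24 (without AT10 replicate 2) and -4.46 (without AT10 replicate 3, adjusted p = 0.378), and that of AT10 from AT01 between -0.93 (without AT10 replicate 2) and -4.15 (without AT10 replicate 3), with -4.14 without AT01 replicate 1. The difference between AT1 and AT01 turned from 1.35 without AT01 replicate 2 to -1.77 without AT01 replicate 1.

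Of the other 8 p53 pathway genes, 7 did not fall with Phlda3, and Tp53inp1, with a level near 1 FPKM, is given apart. The 7 genes in 9 TCDCA libraries gave 63 values, which lay between 75.4% and 131% of the gene's own FCA mean in FPKM. Phlda3 was under 50% of its FCA mean in 6 of the same 9 libraries, down to 0.242%. Tp53inp1 varied more, from 0.41 to 1.84 FPKM in the TCDCA libraries. Its lowest value was 40.9% of its FCA mean, in AT1 replicate 1, where Phlda3 was at 44.2%. In AT10 replicates 1 and 2 and AT01 replicate 1, with Phlda3 lowest, Tp53inp1 was at 0.93, 1.03 and 1.12 FPKM. The FCA libraries had 0.93 to 1.09 FPKM. In AT10, while Phlda3 went from 0.68 and 0.31 to 113.16 FPKM, Cdkn1a was at 19.51, 17.4 and 18.6 FPKM and Mdm2 at 23.71, 26.39 and 25.41 FPKM in the same 3 libraries. In AT01, while Phlda3 went from 0.49 to 110.94 and 109.32 FPKM, Cdkn1a was at 18.98, 19.88 and 15.52 FPKM and Mdm2 at 28.88, 24.91 and 21.9 FPKM. In the library with least Phlda3, AT10 replicate 2, Cdkn1a was the lowest of its group and Mdm2 the highest.

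**Figure D2:**
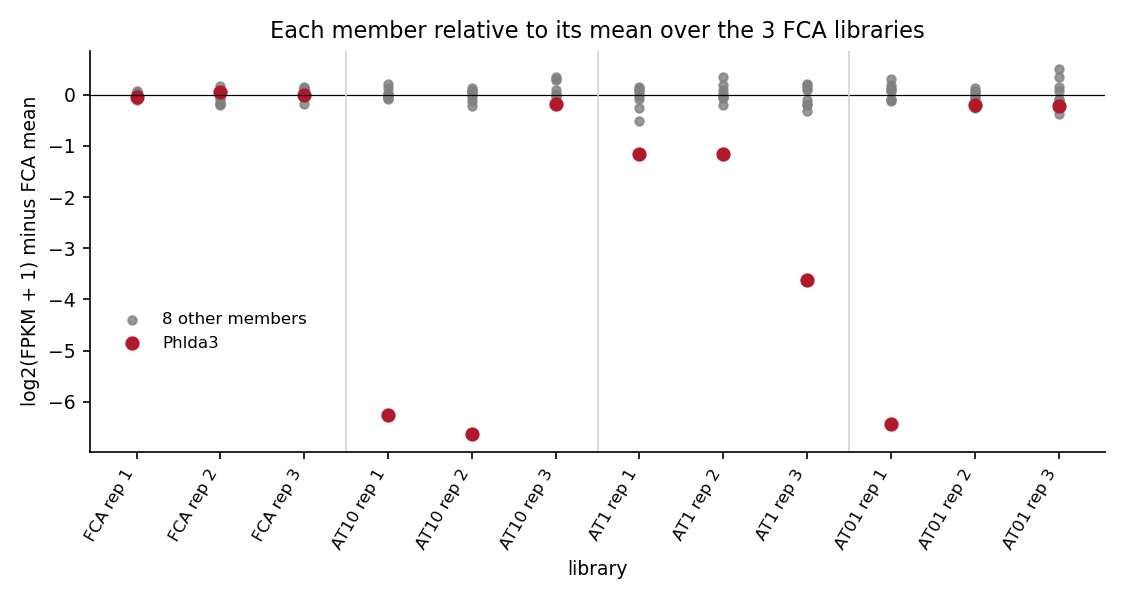
Difference of log2(FPKM + 1) from the gene's mean over the 3 FCA libraries (vertical axis) in each of the 12 libraries (horizontal axis), with Phlda3 in red and the other 8 genes in grey. Phlda3 drops to between -6.26 and -6.62 in 3 TCDCA libraries, while the grey points of the TCDCA libraries stay between -0.506 and 0.504, a span that the added 1 narrows for the low genes Tp53inp1 and Sesn1.

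Fitted with limma over all 11611 records, 0 of the 8 genes were called in any of the 7 comparisons (4 against FCA and 3 between doses) at a Benjamini-Hochberg adjusted p under 0.05. None was under an unadjusted p of 0.05 either, by limma or by a Ballgown-style F test. By limma, 12%, 11.9%, 11% and 6.6% of all records were under it for TCDCA, AT10, AT1 and AT01 against FCA. The shares were 6.46%, 4.97% and 3.43% for the comparisons of AT10 with AT1, AT10 with AT01 and AT1 with AT01. The background was low in the same fits. Of all records, 0.0258% were called between the 9 TCDCA libraries and FCA, 0.172% in AT10, 0.0947% in AT1 and 0.0947% in AT01 against FCA, and 0.258%, 0.0689% and 0.129% in the comparisons between doses, in the same order. The 95% intervals bound what could have been missed. Against FCA, the lowest bound of the 8 genes was -0.40 over all TCDCA libraries, -0.40 in AT10, -0.59 in AT1 and -0.51 in AT01, so for the 7 genes other than Tp53inp1 a fall by a log2 unit lay outside the interval, also with 0.1 added in place of 1. For Tp53inp1 with 0.1 added, the interval in AT1 ran from -1.27 to 0.20, which holds such a fall. The median difference of the 8 genes was 0.01 for TCDCA against FCA, 0.04 in AT10, 0.01 in AT1 and 0.04 in AT01, beside 0.00, -0.01, 0.02 and 0.00 over all records tested.

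**Figure D3:**
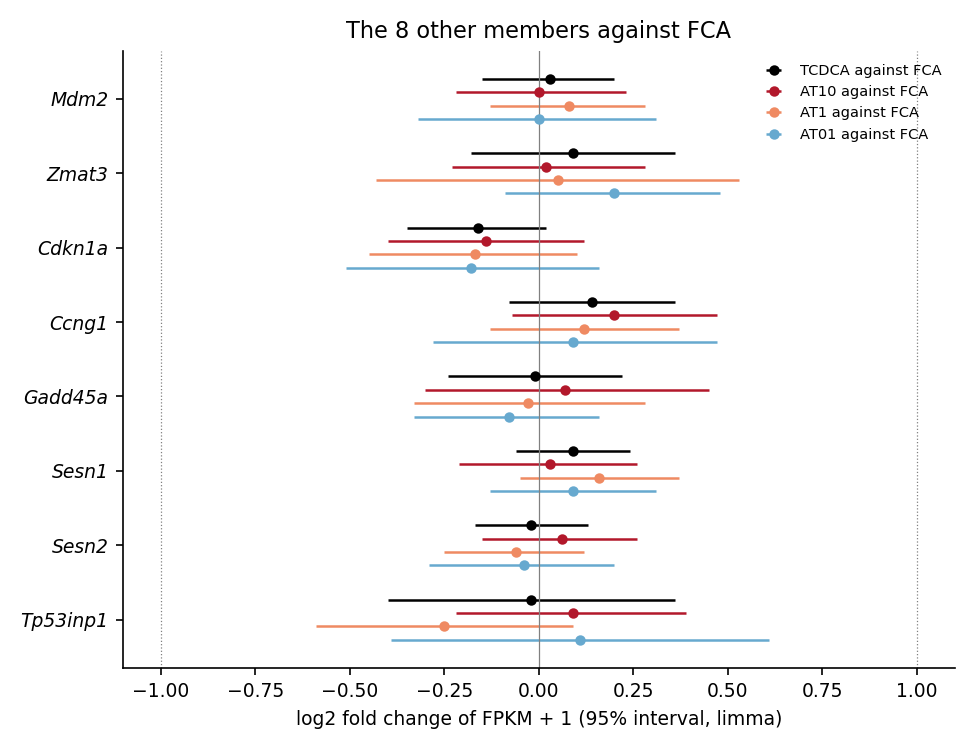
Log2 fold change of FPKM + 1 (horizontal axis) of the 8 other p53 pathway genes (vertical axis) for TCDCA, AT10, AT1 and AT01 against FCA, with 95% intervals from limma. Intervals lie between -0.59 and 0.61 and all cross 0, and the dotted lines mark a change by a log2 unit, which for Tp53inp1 is about the largest fall this scale allows.

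Among the genes that act on p53 itself, Mdm2, the ligase that marks p53 for breakdown, lay at 25.95, 22.47 and 27.18 FPKM in FCA, 23.71, 26.39 and 25.41 in AT10, 25.96, 26.78 and 26.93 in AT1 and 28.88, 24.91 and 21.9 in AT01. The 4 groups overlapped, and 7 of the 9 TCDCA libraries lay within the range of the FCA libraries. The difference from FCA was 0.03 (SE 0.08, 95% interval from -0.15 to 0.20, adjusted p = 0.912). Zmat3, an RNA-binding p53 target (also called Wig1) that stabilises p53 mRNA, was at 5.29 ± 0.713 FPKM in FCA, 5.36 ± 0.224 in AT10, 5.58 ± 1.48 in AT1 and 6.19 ± 0.498 in AT01 (SD, n = 3 each). Only in AT01, with 6.76, 5.84 and 5.97 FPKM, did its 3 libraries all exceed the FCA libraries, of which the highest was 5.82. This difference was 0.20 with an adjusted p of 0.779 and an exact permutation p of 0.1, the smallest possible.

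Of the genes that arrest the cell cycle, Cdkn1a encodes p21, the inhibitor of cyclin-dependent kinases through which p53 stops cells in G1. Its level was 20.66, 23.15 and 17.97 FPKM in FCA, 19.51, 17.4 and 18.6 in AT10, 16.86, 19.47 and 17.87 in AT1, and 18.98, 19.88 and 15.52 in AT01. No TCDCA library was above the highest FCA library and 4 of 9 were below the lowest, but the groups overlapped in every comparison. The difference of -0.16 (SE 0.09, 95% interval from -0.35 to 0.02) had an adjusted p of 0.465 and a two-sided exact permutation p of 0.0818, where 9 libraries against 3 can reach 0.00455. It was -0.25 without FCA replicate 3 (adjusted p = 0.308) and -0.08 without FCA replicate 2 (adjusted p = 0.88).

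Ccng1 encodes cyclin G1, a p53 target that recruits a phosphatase to Mdm2. It was the most abundant of the 8, at 49.1 ± 5.61 FPKM in FCA, 56.5 ± 4.77 in AT10, 53.3 ± 3.27 in AT1 and 52.8 ± 9.07 in AT01 (SD, n = 3 each). In 5 of the 9 TCDCA libraries it exceeded the highest FCA library (53.49 FPKM) and in 0 it was below the lowest (42.79 FPKM), with a difference of 0.14 (SE 0.10, -0.08 to 0.36, adjusted p = 0.601) that was 0.04 without FCA replicate 2. Gadd45a, a stress protein that p53 induces after DNA damage, was at 18 ± 2.15, 19.1 ± 3.52, 17.7 ± 2.11 and 16.9 ± 0.208 FPKM in FCA, AT10, AT1 and AT01 (SD, n = 3 each). Its groups overlapped, with a difference of -0.01 for TCDCA against FCA (SE 0.11, -0.24 to 0.22, adjusted p = 0.972).

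The sestrins restrain mTORC1 signalling when amino acids are short or the cell is stressed. Sesn1 was low, at 1.58, 1.8 and 1.92 FPKM in FCA, 1.72, 2.02 and 1.72 in AT10, 1.95, 2.14 and 2.18 in AT1 and 2.01, 1.9 and 1.91 in AT01. The 3 AT1 libraries exceeded every FCA library by a small margin, with a difference of 0.16 (adjusted p = 0.498, exact permutation p = 0.1), and the other groups overlapped FCA. Sesn2 was at 6.63 ± 0.478, 6.94 ± 0.458, 6.28 ± 0.206 and 6.41 ± 0.643 FPKM in FCA, AT10, AT1 and AT01 (SD, n = 3 each). Its difference from FCA was -0.02 (SE 0.07, -0.17 to 0.13, adjusted p = 0.934), the tightest interval of the 8 together with that of Sesn1. The added 1 narrows the interval of Sesn1. With 0.1 added it ran from -0.08 to 0.35, and that of Sesn2 from -0.19 to 0.15.

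Tp53inp1, which helps direct p53 to its apoptotic targets and takes part in autophagy, was the lowest of the members and the most variable of the 8. It was at 1.09, 0.93 and 0.99 FPKM in FCA, 0.93, 1.03 and 1.45 in AT10, 0.41, 0.93 and 0.74 in AT1, and 1.12, 0.68 and 1.84 in AT01. TCDCA libraries lay below, within and above the FCA range in 3 cases each. The difference of -0.02 (SE 0.17, -0.40 to 0.36) had an adjusted p of 0.974, and that between AT10 and AT1, 0.34 (SE 0.16), an adjusted p of 0.748. With 0.1 added in place of 1 the latter was 0.68 (adjusted p = 0.748), and AT1 differed from FCA by -0.53 instead of -0.25 (adjusted p = 0.51).

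**Figure D4:**
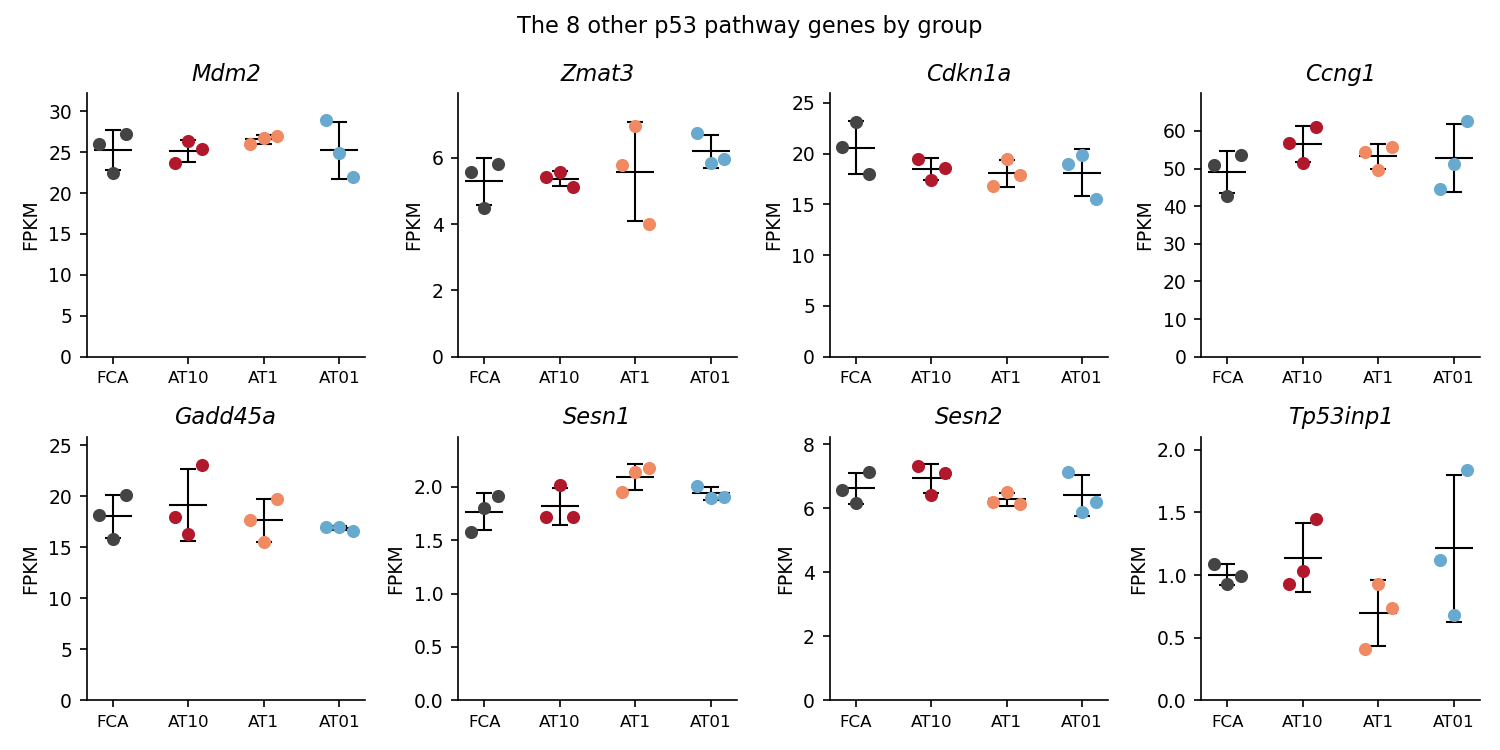
FPKM (vertical axes, from 0) of the 8 other p53 pathway genes in the FCA, AT10, AT1 and AT01 groups (horizontal axes), with a point per library and bars for the mean ± SD of 3 libraries. The groups overlap in every panel except AT1 against FCA for Sesn1, and AT01 against FCA and against AT10 for Zmat3.

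In the counts of groups that did not overlap, the 8 genes stood near the background. For AT1 against FCA it was 1 of 8 genes (Sesn1), beside 19.9% of all records, and for AT01 against FCA 1 of 8 (Zmat3), beside 14%. Between AT10 and AT01 it was again 1 of 8 (Zmat3, with a difference of -0.17 and an adjusted p of 0.867), beside 11.1%, and in the other comparisons 0 of 8. In those, 2.86% of all records did not overlap for TCDCA against FCA, 19.9% for AT10 against FCA, 13.9% for AT10 against AT1 and 8.6% for AT1 against AT01.

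The order of the mean levels over the 12 libraries, in FPKM, which is per transcript length, put Phlda3 (70.1) above Ccng1 (52.9), Mdm2 (25.5), Cdkn1a (18.8), Gadd45a (17.9), Sesn2 (6.57), Zmat3 (5.61), Sesn1 (1.9) and Tp53inp1 (1.01). Neighbours whose ranges over the libraries overlapped were Mdm2, Cdkn1a and Gadd45a, then Sesn2 and Zmat3, and then Sesn1 and Tp53inp1. Phlda3 had no fixed place, since its 12 values ran from below those of Sesn1 to above those of Ccng1. Ranges over the libraries of the other 8 genes were from 0.268 (Sesn2) to 1.01 (Tp53inp1) on the log2 scale, that is wider than in 6.11% to 75.7% of all records.

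Across the 9 TCDCA libraries, none of the 8 genes had a correlation with Phlda3 that passed the test. Pearson's r on the log2(FPKM + 1) scale was -0.395 for Mdm2, -0.184 for Cdkn1a, 0.45 for Ccng1, -0.106 for Sesn1, -0.496 for Sesn2, 0.195 for Gadd45a, 0.0659 for Tp53inp1 and 0.0484 for Zmat3. Spearman's rho was -0.483, 0.1, 0.367, -0.452, -0.335, 0.267, 0.0586 and 0.0333 in the same order. The exact permutation p of r over the 362880 orderings of 9 libraries was 0.177 at the smallest (Sesn2), and the adjusted p over the 8 relations lay between 0.795 and 0.912. When the 2 libraries farthest from the median of Phlda3 (AT10 replicate 2 and AT01 replicate 1) were left out, r was -0.0178 for Mdm2, 0.00685 for Ccng1, -0.492 for Sesn2, 0.4 for Zmat3 and 0.235 for Tp53inp1. Centred by dose group, 0 of the 8 genes were under an adjusted p of 0.05, with the r farthest from 0 at 0.65 for Ccng1 (permutation p = 0.0576, adjusted p = 0.328) and -0.571 for Sesn1 (adjusted p = 0.328). These permutations mixed libraries of different doses, so after centring their p-values are approximate and not exact.

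Only tested records that carry a gene name were ranked by their likeness to Phlda3, with Pearson's r over the 12 libraries as a description. The most alike were AABR07013255.1 (0.905), Tuft1 (0.882), Izumo1r (0.835), Pogk (0.827) and Mkks (0.825). The log2 ranges of these 5 ran from 0.29 (Mkks) to 1.66 (Izumo1r), against 6.67 for Phlda3. Tuft1, for example, was at 0.73 and 1.2 FPKM in AT10 replicates 1 and 2, at 1.24 in AT01 replicate 1 and between 1.71 and 2.19 FPKM in the other 9 libraries. The other members of the set had an r between -0.358 (Sesn2) and 0.169 (Gadd45a) over the same 12 libraries. The points share their libraries and their FPKM scaling, and being the most alike of the named records among 11611 tested is itself a choice.

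Of the genes near Phlda3 in the RefSeq annotation, 4 were expressed (Csrp1, Nav1, Shisa4 and Pkp1), and none of these had a drop of the size of that of Phlda3. Tnni1 and Tnnt2 were at 0.33 FPKM or less and carry no information, and Ipo9, Lad1 and Igfn1 were not analysed here. Nav1 lay between 6.83 and 9.04 FPKM (r = 0.46 with Phlda3), Shisa4 between 26.19 and 42.43 and Pkp1 between 3.8 and 5.1 over the 12 libraries. Csrp1, a cytoskeletal LIM protein, lay between 300.8 and 431.09 FPKM in 11 of the libraries and at 176.05 in FCA replicate 2. The same annotation places a ribosomal protein pseudogene, Rpl11-ps12, over Phlda3, so the assignment of reads there is uncertain and was not tested. Rpl11 itself lay between 89.28 and 113.13 FPKM over the 12 libraries. The record of Phlda3 holds 1 transcript.

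No upstream gene of the pathway passed the test either. Of 21 genes of the p53 core and its regulators, 20 were found and tested, and 0 were called against FCA in any comparison. For TCDCA against FCA 15 were higher and 5 lower, with a median of 0.06 beside 0.00 over all records, and 2 were higher at an unadjusted p under 0.05 (beside 12% of all records in either direction). Mdm4, the partner of Mdm2, had a difference of 0.09 (adjusted p = 0.844). Atr, the kinase that signals replication stress to p53, had the largest difference of the list, 0.31 (SE 0.11, adjusted p = 0.345), and Atm, the kinase for double-strand breaks, 0.19 (adjusted p = 0.374). The most abundant of the list were Rpl5, a ribosomal protein that binds Mdm2, with a difference of 0.11 (adjusted p = 0.533), and the p53-inducible Rps27l with -0.08 (adjusted p = 0.84).

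Among 45 other p53 targets, 43 were found and 39 tested, of which 0 were called against FCA. For TCDCA 16 were higher and 23 lower, with a median of -0.05. Under an unadjusted p of 0.05 were 2 higher and 1 lower, beside 12% of all records in either direction. The most abundant, the lysosomal fucosidase Fuca1 and the ubiquitin ligase Rnf19b, differed from FCA by -0.06 (adjusted p = 0.733) and -0.21 (adjusted p = 0.311). Ercc5, an endonuclease of nucleotide excision repair, differed by 0.30 (adjusted p = 0.306).

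**Figure D5:**
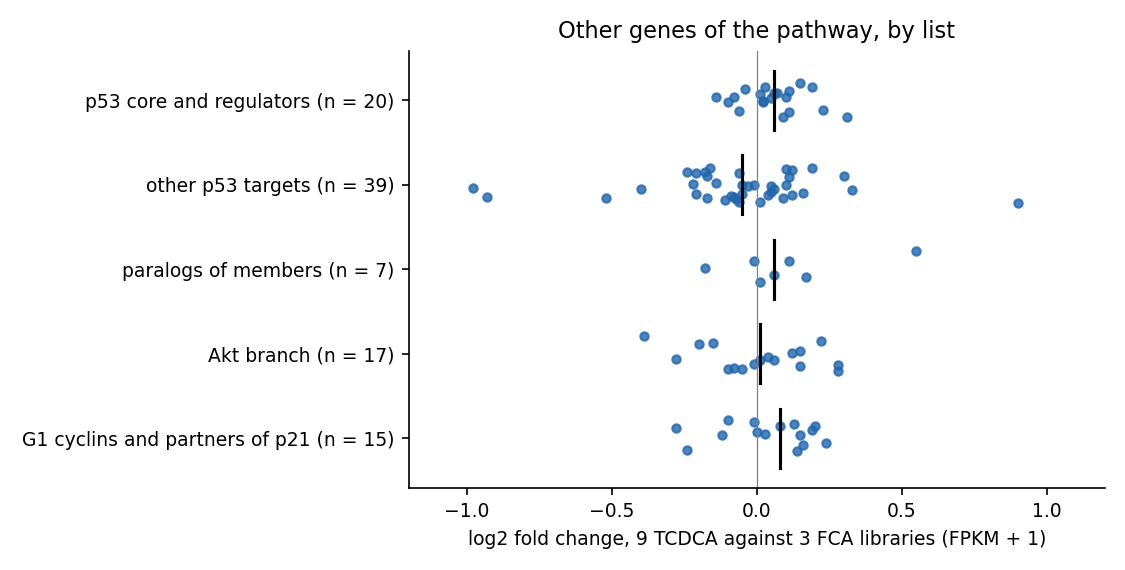
Log2 fold change of FPKM + 1 for the 9 TCDCA against the 3 FCA libraries (horizontal axis) of the tested genes of 5 lists (vertical axis, with the number of genes), each point a gene and each black line the median of its list. Medians lie between -0.05 and 0.08, and the points farthest from 0 are the p53 targets Sertad1 on the left and Tnfrsf10b on the right.

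The targets at the ends of that list were picked out after their values had been seen. Tnfrsf10b, the death receptor DR5, was at 0.78, 1.57 and 0.74 FPKM in FCA, 3.94, 4.15 and 4.34 in AT10, 1.53, 4.25 and 0.93 in AT1, and 3.71, 0.82 and 3.63 in AT01. All 3 AT10 libraries lay above the FCA libraries, with a difference of 1.36 (SE 0.17) and a limma adjusted p of 0.0842. Of all records, 19.9% did not overlap, in either direction, for AT10 against FCA. For the 9 TCDCA libraries together the difference was 0.90 and the adjusted p 0.377. Sertad1 stood at 34.67 FPKM in FCA replicate 3 and 33.5 in AT1 replicate 2, and at 0.95 FPKM or less in the other 10 libraries. Tob1, an antiproliferative protein of the same family as Btg2, was at 0.03 FPKM in AT1 replicate 3 and 0.02 in AT01 replicate 2, and between 8.66 and 14.95 in the other 10. Records with 2 separate levels, as Sertad1 and Tob1 have, made up 4 of the 39 targets and 4.52% of all records. By that definition (a gap of at least 1 log2 unit, wider than the range within either level, with at least 2 libraries on each side), Phlda3 did not qualify, since the AT1 libraries filled the gap.

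Between doses, 1 of the 98 tested genes of the 5 lists was called, in AT10 against AT1, where 0.258% of all records were. Btg2, an antiproliferative p53 target named after its values were seen, was at 58.11, 54.75 and 54.84 FPKM in AT10 and at 35.14, 33.39 and 29.4 in AT1, a difference of 0.76 (SE 0.08, 95% interval from 0.56 to 0.96, adjusted p = 0.0475). The FCA libraries, at 51.93, 53.15 and 56.58 FPKM, lay beside AT10, and the AT01 libraries, at 40.79, 43.16 and 28.01, lay below both. Of all records, 13.9% did not overlap, in either direction, for AT10 against AT1. For AT1 against FCA the share was 19.9%, for AT01 against FCA 14% and for AT10 against AT01 11.1%. Its call was kept without AT1 replicate 3 (adjusted p = 0.0492) and lost without any of the other 5 libraries of AT10 and AT1, with the difference between 0.69 and 0.81. It was also lost under 4 of the 8 settings that keep all libraries (adjusted p up to 0.339, with the replicate number as a block). Against FCA, Btg2 differed by -0.71 in AT1 (adjusted p = 0.111) and by -0.54 in AT01 (adjusted p = 0.706).

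Phlda1, a paralog of Phlda3 that other growth signals induce too, stayed between 74.68 and 138.55 FPKM. It was at 101.75, 110.45 and 119.42 FPKM in FCA, 115.42, 127.82 and 138.55 in AT10, 76.99, 87.06 and 88.93 in AT1, and 96.33, 87.07 and 74.68 in AT01. The AT1 and AT01 libraries lay below the FCA libraries, and those of AT10 did not. Such a separation from FCA, in either direction, was found in 19.9% of all records with AT1 and in 14% with AT01. The differences of Phlda1 from FCA in AT10, AT1 and AT01 missed the threshold (0.20, -0.39 and -0.36, adjusted p = 0.463, 0.403 and 0.72). AT10 and AT1 differed by 0.59 (adjusted p = 0.216). Of 9 paralogs of the members, 7 were tested and 0 called, with a median of 0.06, and Ccng2, Tp53inp2 and Gadd45b differed by 0.55, -0.01 and 0.17 (adjusted p = 0.374, 0.978 and 0.475). Phlda2 was not tested, with a mean of 0.331 FPKM.

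In the Akt branch, which the protein of Phlda3 restrains, 17 of 18 genes were tested and 0 were called, 9 higher and 8 lower, with a median of 0.01. Akt1 differed from FCA by -0.15 (adjusted p = 0.495), Rheb, the GTPase that activates mTORC1, by -0.08 (adjusted p = 0.905) and Pik3ca, a catalytic subunit of PI3-kinase, by 0.22 (adjusted p = 0.338). Rptor, the scaffold of mTORC1, differed by -0.39 (adjusted p = 0.362). It was at 6.66, 7.0 and 6.67 FPKM in FCA, 3.94, 4.58 and 4.73 in AT10, 4.09, 6.22 and 4.53 in AT1 and 7.0, 3.82 and 6.2 in AT01. The difference in AT10, -0.52, missed the threshold (adjusted p = 0.123), and 19.9% of all records did not overlap, in either direction, for AT10 against FCA. These are transcript levels, and the activity of Akt was not measured in these libraries.

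Of the 15 G1 cyclins and partners of p21, all tested, 0 were called, 9 were higher and 6 lower, and the median was 0.08. Ccnd1, the cyclin D1 that drives G1, was at 30.5 FPKM in AT1 replicate 3 and between 126.51 and 140.33 FPKM in the other 11 libraries, and its difference of -0.28 had an adjusted p of 0.785. Cdk4 differed by -0.00 (adjusted p = 0.986), Ccnd2 by 0.14 (adjusted p = 0.363) and Ccna2 by 0.19 (adjusted p = 0.389). Over the 5 lists, 11 of 98 genes were under an unadjusted p of 0.05 for TCDCA against FCA by limma, beside 12% of all records. By the Ballgown-style test 12 were, for which the share of all records is not given here. By either test 0 were called.

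In the libraries as a whole, markers of the labelled cell type were abundant. All 8 of the FLS markers that were found were above 1 FPKM (Vim at a mean of 2660 FPKM, Pdgfrb at 139 and Thy1 at 138). Their summed level, on average mostly Vim, was 3980 to 4580 FPKM in FCA, 3000 to 4280 in AT10, 3990 to 4110 in AT1 and 3640 to 4150 in AT01. Of 10 macrophage markers 6 were found and 2 reached 1 FPKM (Cd14 at 13.8 and Cd68 at 2.13). The markers found summed to 6.49 to 21.9 FPKM in FCA, 18.4 to 21.4 in AT10, 5.71 to 17.6 in AT1 and 6.11 to 20.1 in AT01. On average these sums were mostly Cd14, which ran from 3.6 to 18.82 FPKM, and the markers found other than Cd14 and Cd68 averaged 0.157 FPKM (Csf1r) or less. These sums therefore give no measure of macrophage content. The endothelial markers found summed to 0.21 FPKM at most. The part of these differences in the levels above was not tested, and in bulk RNA fewer cells of a type and less RNA per cell cannot be told apart. FPKM values carry no read counts per gene, so the number of reads behind each value is unknown here and no counting interval is given.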

How the data were processed

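The deposited values were FPKM per gene record to 2 decimals, which the authors made from paired-end reads by alignment with HISAT2 and assembly and estimation with StringTie and Ballgown. The labels also list cutadapt. The study gives the reads per library but, in the sources used here, neither the reads behind each value nor the genome build. Scaling by FPKM makes each gene's value depend on the rest of its library, whose FPKM summed to 284210 to 309696.

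Values were used as log2(FPKM + 1) and the 11611 of 22442 records that averaged 1 FPKM or more were fitted with limma 3.58.1 (trend) in R 4.3.3, the 2 sides of a comparison at a time, with Benjamini-Hochberg adjustment over all of them. Exact permutation tests were two-sided and went through all arrangements (NumPy 2.4.6, Python 3.11.15). On simulated data for TCDCA against FCA, 96% of 200 genes changed by 2 log2 units were called, with 10 false calls among the unchanged genes. In the other comparisons between 81% (AT01 against FCA) and 88.5% (AT1 against FCA) were called. The simulated noise was normal, without records of 2 separate levels, and smaller changes were not simulated. Members, lists and the genes named were chosen with earlier results of these data known. Named were all members, Mdm4, every gene called against FCA, the 2 genes of highest mean FPKM and the 2 of smallest unadjusted p for TCDCA against FCA in each list, and the 5 records with a gene name most correlated with Phlda3. A further gene named by the rule is not reported here. At most 0.526% of the records were equal in any pair of libraries.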

Additional observations from a re-analysis of the deposited data

How the results depend on the processing

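With the replicate number as a block, FPKM summed over records of the same name, median-of-ratios scaling, a Ballgown-style F test, 1 fit for the 12 libraries, all records kept, only records averaging 10 FPKM or more (4 of the 8 other members), 0.1 added in place of 1, or any library left out, the 8 other members gave 804 values, of which 0 were called and the smallest adjusted p was 0.308. The largest move was 0.34 on the log2 scale (Tp53inp1 between AT10 and AT1 with 0.1 added), and 36 values changed sign. The reads behind each value are unknown, so counting error could not be given.

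Same-numbered libraries of different groups did not deviate together (mean r -0.00162 over 18 pairs, from -0.105 to 0.0942), so no pairing by number was seen, although the study's notes describe the numbers as sets of repeats. With the replicate number as a block, 0 of the 8 other members were called in any comparison and 1 was under an unadjusted p of 0.05 in AT10 against FCA, and 0 of the genes of the 5 lists were called for TCDCA against FCA, with 11 under an unadjusted p of 0.05. The shares of all records under that p with the block are not given here, so these counts are not read further.

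Signs turned where differences were near 0. For TCDCA against FCA, leaving out a library gave -0.05 to 0.08 for Mdm2, -0.10 to 0.06 for Gadd45a, -0.06 to 0.03 for Sesn2, -0.08 to 0.04 for Tp53inp1 and -0.01 to 0.15 for Zmat3. In AT10 it gave -0.06 to 0.18 for Gadd45a, -0.02 to 0.07 for Sesn1, -0.02 to 0.16 for Tp53inp1 and -0.07 to 0.08 for Zmat3. In AT1 it gave -0.12 to 0.06 for Gadd45a and -0.10 to 0.23 for Zmat3, and in AT01 -0.03 to 0.21 for Ccng1, -0.11 to 0.01 for Sesn2 and -0.09 to 0.29 for Tp53inp1. Between AT10 and AT1 it gave -0.01 to 0.09 for Cdkn1a, -0.03 to 0.20 for Gadd45a and -0.21 to 0.13 for Zmat3, and between AT10 and AT01 -0.01 to 0.23 for Ccng1, -0.07 to 0.10 for Cdkn1a and -0.21 to 0.17 for Tp53inp1. Between AT1 and AT01 it gave -0.09 to 0.15 for Ccng1, -0.02 to 0.14 for Gadd45a, -0.01 to 0.18 for Mdm2, -1.77 to 1.35 for Phlda3, -0.07 to 0.05 for Sesn2 and -0.30 to 0.03 for Zmat3. Differences that rounded to 0 with all libraries also fell on both sides of 0. For Mdm2 they ran from -0.08 to 0.06 in AT10, -0.1 to 0.09 in AT01 and -0.09 to 0.1 between AT10 and AT01. For Cdkn1a the range between AT1 and AT01 was -0.1 to 0.07.

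The correlation with Phlda3 became 0.0986 for Sesn1 and -0.0436 for Gadd45a without the 2 libraries farthest from the median, and -0.0404 for Zmat3 after centring by dose group, all without passing the test. Btg2 between AT10 and AT1 was called under 4 of the 8 settings that keep all libraries and in 1 of 6 with a library left out, with adjusted p from 0.031 to 0.339. The cause of these changes was not tested.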

Other observations

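The records with a gene name whose pattern over the 12 libraries was most opposite to that of Phlda3 were picked out after their values had been seen. Fut10, a fucosyltransferase, had a Pearson r of -0.902 and was at 2.61 and 2.64 FPKM in AT10 replicates 1 and 2, 3.06 in AT1 replicate 3 and 3.19 in AT01 replicate 1, against 1.12 to 1.65 FPKM in the other 8 libraries. Xxylt1, a xylosyltransferase that extends the sugar on Notch receptors, had an r of -0.886 and a log2 range of 0.672. AC109958.1, a record named only by its clone, was at 51.23 and 6.32 FPKM in AT10 replicates 1 and 2, 59.27 in AT01 replicate 1, 5.06 in AT1 replicate 3 and 3.74 in FCA replicate 3, and was listed at 0 in the other 7 libraries (r = -0.876). These are descriptions of the extremes of the named records among 11611 tested, with no test.

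Foxo1, a transcription factor that Akt holds out of the nucleus, was picked out after its values had been seen. It was listed at 0 in AT10 replicate 3 and lay between 3.45 and 5.83 FPKM in the other 11 libraries.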
